A study of Mus musculus with 2 samples.

Results

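The genes described here encode collagens, laminins and other proteins of the extracellular matrix: 44 collagen chains, 11 laminin chains and 13 further genes (Fn1, Dcn, Lum, Bgn, Sparc, Fbn1, Eln, Nid1, Hspg2, Vcan, Postn, Tnc and Mgp). They were picked by a rule on gene names, 68 of 23456 genes, and for each gene the transcript row with the most reads was used, from 89 rows in all. The material was 1 group of 2 samples from the colons of naive wild-type mice of strain C57BL6, without treatment. Colon tissue was digested with enzymes, cells were sorted as eosinophils by flow cytometry, and CEL-Seq, a method that reads the 3′ end of messenger RNA, was run as 3 technical replicates of each sample. The table holds 1 mean per transcript over these 6 libraries, so no value per sample, no SD and no test between samples can be given, and there was no control group. No source used here gives the sort gate, the age of the mice or the numbers of cells and mice.

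Collagens are trimers of chains built from repeated glycine triplets. Fibrillar collagens (types I, III and V) form the cables of connective tissue, type IV collagen forms the mesh of basement membranes, and type VI forms beaded filaments between them. Laminins are trimers of an alpha, a beta and a gamma chain that polymerise on the cell side of basement membranes, where nidogen and perlecan join them to type IV collagen. In the gut wall these genes are known chiefly as products of fibroblasts, smooth muscle and endothelium, with several laminin chains made by the epithelium.

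The promoters of 4 collagen genes are printed because the results below turn on their chains: Col3a1 and Col1a2 were the collagen genes with the highest levels, and Col4a1 and Col4a2, whose chains assemble together, lie head to head. In the mm10 coordinates of the table the Col4a1 row begins at position 11312826 of chromosome 8 on the minus strand and the Col4a2 row begins 3 bases away, at 11312829, on the plus strand. The sequences are those of RefSeq on GRCm38.p6, each from 250 bases before to 50 bases after the annotated start, 5′ to 3′ on the strand of the gene. Capitals mark 3 short words, each searched on both strands. The first is the CCAAT box, whose letters are its name. The word searched as a TATA-type promoter element was TATAAA. The GC box was searched as GGGCGG; on the opposite strand they read ATTGG for the first, TTTATA for the second and CCGCCC for the last. The windows are chr1:45311288-45311587 for Col3a1 (plus strand), chr6:4505368-4505667 for Col1a2 (plus strand), chr8:11312777-11313076 for Col4a1 (minus strand) and chr8:11312555-11312854 for Col4a2 (plus strand).
Col3a1: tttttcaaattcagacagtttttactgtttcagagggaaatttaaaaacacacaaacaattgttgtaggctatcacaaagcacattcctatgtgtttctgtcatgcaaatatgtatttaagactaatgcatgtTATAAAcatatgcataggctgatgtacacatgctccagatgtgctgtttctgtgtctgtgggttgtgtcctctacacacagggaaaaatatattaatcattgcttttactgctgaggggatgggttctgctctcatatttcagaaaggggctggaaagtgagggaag
Col1a2: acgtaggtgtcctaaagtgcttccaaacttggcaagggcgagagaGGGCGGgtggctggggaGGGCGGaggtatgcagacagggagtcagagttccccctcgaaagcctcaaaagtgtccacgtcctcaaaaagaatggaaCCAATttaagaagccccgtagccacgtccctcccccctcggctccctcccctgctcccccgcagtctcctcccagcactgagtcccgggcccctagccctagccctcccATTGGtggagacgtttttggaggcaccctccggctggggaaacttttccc
Col4a1: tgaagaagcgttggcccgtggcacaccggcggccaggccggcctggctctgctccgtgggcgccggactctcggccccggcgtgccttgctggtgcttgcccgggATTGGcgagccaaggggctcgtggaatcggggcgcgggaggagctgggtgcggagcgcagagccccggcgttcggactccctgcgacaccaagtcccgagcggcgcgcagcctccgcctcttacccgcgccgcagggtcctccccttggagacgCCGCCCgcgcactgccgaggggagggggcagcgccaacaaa
Col4a2: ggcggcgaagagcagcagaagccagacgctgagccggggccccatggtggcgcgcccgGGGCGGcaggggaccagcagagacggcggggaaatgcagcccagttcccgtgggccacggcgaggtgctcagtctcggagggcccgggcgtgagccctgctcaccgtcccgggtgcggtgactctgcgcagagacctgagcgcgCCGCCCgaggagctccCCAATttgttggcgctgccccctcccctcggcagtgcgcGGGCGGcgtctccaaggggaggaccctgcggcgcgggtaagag

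The Col4a1 and Col4a2 windows share 78 bases, read on opposite strands, and are rich in G and C, at 74.0% and 73.7%. The Col3a1 window is at 37.7% and the Col1a2 window at 61.0%, beside a median of 52.7% over all promoters in the RefSeq table. Only the Col3a1 window of these 4 holds TATAAA, and the other 3 hold a CCAAT box and at least 1 GC box. Among all 32851 promoter windows of this length, 37.4% hold a CCAAT box, 13.6% TATAAA and 35.7% a GC box on either strand; none of the words contains another. The RefSeq table had entries for 48 of the 68 genes, with 54 windows, of which 17 hold a CCAAT box, 8 TATAAA and 33 a GC box. The RefSeq starts equal those of the Col3a1 and Col4a1 rows, whereas for Col1a2 and Col4a2 RefSeq places the start upstream of the row. A motif match describes the letters only.

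Levels are the authors' RPKM, a read number divided by transcript length in kilobases and by library size in units of 1000000 reads. Brackets hold exact 95% Poisson intervals from the summed reads of all 6 libraries, put on the RPKM scale with 1 factor for each gene. Only counting error enters them, and amplified copies of 1 molecule cannot be told from separate molecules. Matrix genes were present at low to moderate levels. Of the 68 genes, 66 had at least 1 read, which is 97.1%, beside 69.1% of all genes. Of the 68, 20 (29.4%) had an RPKM of at least 1, beside 31.0% of all genes, so the share at this level was close to the background. Without division by length, 52 of 68 (76.5%) reached 1 read per 1000000 reads on genes (RPM), beside 50.9% of all genes. The median of the 68 genes was an RPKM of 0.318, beside 0.186 over all genes, and an RPM of 4.74, beside 1.04. The matrix genes held 26913 reads, or 0.350% of the 7692387 reads on genes (exact binomial interval 0.346% to 0.354%).

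These reads were concentrated in a few genes. Col3a1, Sparc and Col1a2 held 54.6% of them, and with Col4a2, Col6a1 and Col6a2 the share was 77.1%. By class, fibrillar collagens held 44.9% of the matrix reads, the glycoprotein and elastic fibre genes 20.2%, type VI collagens 14.4%, type IV collagens 10.5%, proteoglycans 4.19% and laminins 2.57%. At the other end, 18 genes had fewer than 10 reads in all 6 libraries together, and Col10a1 and Col26a1 were listed at 0. For Col10a1 and Col26a1 the limit that a count of 0 allows was taken as 3 reads, or an RPM of 0.390, and the upper bound of the 2-sided Poisson interval used elsewhere is 3.69 reads. The data are from bulk RNA, so fewer cells of a type and less RNA per cell cannot be told apart.

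**Figure D1:**
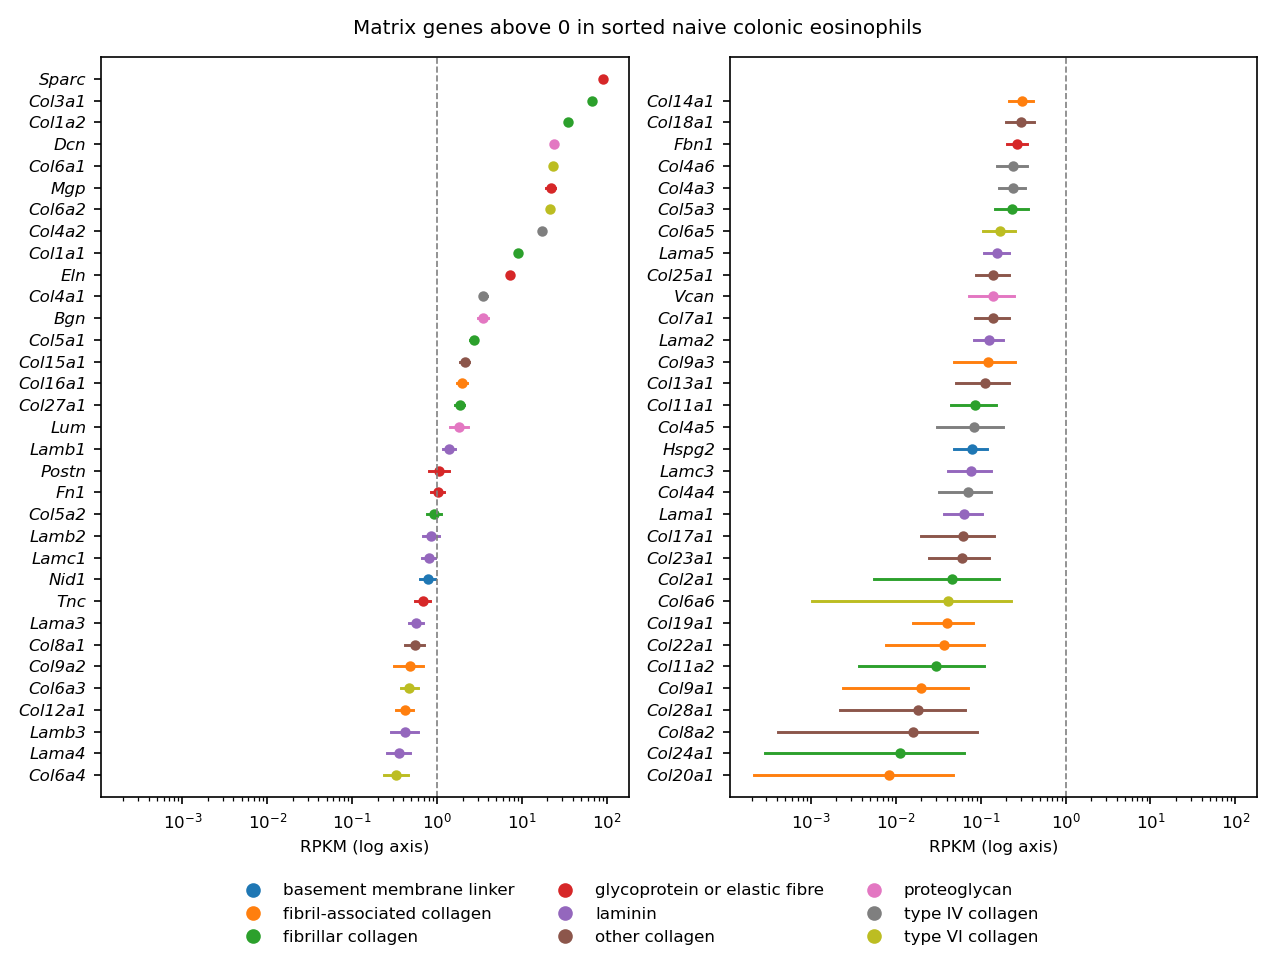
RPKM of 65 matrix genes above 0 (log axis), ordered from the highest to the lowest and coloured by class; points are the authors' means and bars their exact 95% Poisson intervals. Sparc and Col3a1 lead at 91.2 and 66.7, the dashed line marks an RPKM of 1, and the widest bars belong to genes with 1 or 2 reads.

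Fibrillar collagens, the load-bearing cables of connective tissue, gave the highest collagen values. Col3a1, the single chain of type III collagen, which is abundant in distensible organs such as the gut, had 6872 reads and an RPKM of 66.7 (65.1 to 68.2). It ranked 454 of all 23456 genes by RPKM and 159 by reads. Its row spans chr1:45311538-45349706. Col1a2, 1 of the 2 kinds of chain in type I collagen (chr6:4505697-4541543), followed with 3571 reads and an RPKM of 35.2 (34.1 to 36.4). Col1a1, the other chain of that trimer, had 821 reads and an RPKM of 8.95 (8.35 to 9.58). Type I collagen protein is known to assemble with more of the Col1a1 chain than of the Col1a2 chain. In RNA, another measure, the Col1a1 RPKM here was 0.254 times that of Col1a2 (0.235 to 0.274). The interval lies below 1, so this difference exceeds counting error; replicate error could not be measured.

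The type I pair also differs in its annotation at the 3′ end, the part of the transcript that CEL-Seq reads. The Col1a1 row ends at position 94951856 of chromosome 11, which is 1186 bases short of the gene's end in RefSeq and in GENCODE M21, while the Col1a2 row reaches the RefSeq end. The part of this gap in the low Col1a1 value was not tested. Over all 68 genes the row ended within 10 bases of the RefSeq gene end, or beyond it, for 58. The gap was over 100 bases for the other 10 and over 1000 bases for 5 of these: Col1a1, Col4a4 (2304), Lamc3 (2548), Col22a1 (2681) and Col6a6 (84695). For Col6a6 the gap comes from the row used: its 2 rows have 1 read each, the tie went to the one with the higher RPKM (0.0407), and the other, at an RPKM of 0.00494, reaches the RefSeq end. Of the leading genes, Sparc had a gap of 342 bases to the RefSeq end and 1 base to the GENCODE end. The remaining RefSeq gaps over 100 bases were those of Col13a1 (264), Col11a1 (430), Col11a2 (442) and Col28a1 (708). Sequence shared with other genes was rare: in 66 of 68 genes, 0% of the 35-base words in the last 500 bases occurred in a transcript of another gene, with 2.21% for Bgn and 3.65% for Col5a1.

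Among the minor fibrillar chains, Col5a1, which with Col5a2 forms the type V collagen that seeds type I fibrils, had an RPKM of 2.72 (2.46 to 2.99). Col5a2 had 0.932 (0.767 to 1.12) and Col5a3 0.237. Col27a1, a fibrillar collagen known from cartilage, stood at 1.86 (1.64 to 2.11). The cartilage chains Col2a1, Col11a1 and Col11a2 had 2, 12 and 2 reads, and Col24a1 had 1. The part of the 3′ gaps of Col11a1 and Col11a2 in their low counts was not tested. In total 5 of 11 fibrillar genes were at an RPKM of 1 or above, beside 31.0% of all genes, and the median was 0.932.

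Type IV collagen, the mesh of basement membranes, was represented mainly by its second chain. Col4a2 had 2313 reads and an RPKM of 17.3 (16.6 to 18.1), and Col4a1, with which it forms the common trimer of all basement membranes, had 433 reads and 3.51 (3.18 to 3.85). The protein trimer is known to hold more of the Col4a1 chain. In RNA, another measure, the Col4a2 RPKM was 4.94 times that of Col4a1 (4.46 to 5.49). This ratio was larger than counting error, and both rows end exactly at the RefSeq and the GENCODE gene ends, so no 3′ gap was seen for either. The starts of their rows lie 3 bases apart, within the bases that the printed windows share. The remaining type IV chains, used in specialised basement membranes, were all under an RPKM of 0.25: Col4a6 at 0.241, Col4a3 at 0.238, Col4a5 at 0.0838 and Col4a4 at 0.0703.

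Type VI collagen, whose filaments lie near basement membranes, had 2 chains at like levels and a partner that was low. Col6a1 stood at an RPKM of 23.2 (22.2 to 24.2) from 2046 reads and Col6a2 at 21.7 (20.7 to 22.7) from 1699 reads, and both genes lie on the minus strand of chromosome 10, at chr10:76708792-76726044 and chr10:76595756-76623404. Their ratio was 1.07 (1.003 to 1.14), the value nearest to 1 among the 7 RPKM ratios examined. Col6a3, the long chain that completes the common trimer, had 77 reads and an RPKM of 0.472 (0.373 to 0.591), which is 45.9 times lower than Col6a2 (36.5 to 58.4). The ratio of Col6a3 to Col6a2 was 0.0218 by RPKM and 0.0453 by RPM, so its size depends on the division by length and its direction does not. Its row reaches the RefSeq end but stops 937 bases short of the GENCODE end, and its part in the low value was not tested. The alternative partner chains Col6a4 and Col6a5 had 0.332 and 0.170, and Col6a6 had 1 read. The Col6a4 row likewise stops 864 bases short of the GENCODE end.

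Other collagens were sparse. Col15a1, a basement membrane collagen of vessels and muscle, had 234 reads and an RPKM of 2.11, and the fibril-associated Col16a1 had 1.99 (1.72 to 2.28). Col15a1 was the single gene of 12 in its class, the collagens outside the fibrillar, type IV, type VI and fibril-associated groups, at an RPKM of 1 or more. Its close relative Col18a1, the source of endostatin, had 0.295. Col8a1 of vascular walls had 0.548 and its partner Col8a2 1 read, Col25a1 had 0.141, Col7a1 of anchoring fibrils 0.139, and Col13a1, Col17a1, Col23a1 and Col28a1 were between 0.0181 and 0.112. Col16a1 was likewise the only one of 9 fibril-associated collagens to reach an RPKM of 1. Col9a2, Col12a1 and Col14a1 had 0.476, 0.418 and 0.304, and Col9a3, Col19a1, Col22a1, Col9a1 and Col20a1 had between 1 and 7 reads each.

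Laminins were detected across the family at low level. All 11 chains had reads and an RPM of 1 or more, beside 50.9% of all genes at that RPM. The RPKM was at least 1 for 1 of 11 only, beside 31.0% of all genes, and their median was 0.418. Among the beta chains, Lamb1 had 1.38 (1.17 to 1.62), Lamb2 0.853 (0.684 to 1.05) and Lamb3 0.418 (0.286 to 0.590). Lamc1, the gamma chain of most laminins, had 0.801 (0.671 to 0.949) from 134 reads, and Lamc3 0.0774. Of the alpha chains, which set where a laminin is used, Lama3 had the highest value, 0.570 (0.467 to 0.689). Lama4 of vessels and muscle had 0.356 (0.260 to 0.476), Lama5 0.158 (0.110 to 0.218), Lama2 0.126 (0.0824 to 0.185) and Lama1 0.0644 (0.0375 to 0.103). RPKM intervals of neighbours in this order overlapped for Lama3 and Lama4, for Lama5 and Lama2 and for Lama2 and Lama1. They did not for Lama4 and Lama5, a separation that rests on the division by length. In reads, the intervals of Lama4 (32.8 to 60.2) and Lama5 (25.2 to 49.8) overlapped, and that of Lama3 (87.7 to 129) lay above that of Lama4. The Lama2 row stops 1249 bases short of the GENCODE end.

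In common laminin trimers the Lamb1 RPKM was 1.72 times that of Lamc1 (1.35 to 2.19), Lama4 was 0.444 times (0.310 to 0.627) and Lama5 0.197 times (0.132 to 0.286). By RPM the first ratio was 1.12 with an interval of 0.881 to 1.42, which includes 1, so an excess of Lamb1 over Lamc1 rests on the division by length. Of the linkers that join laminin to type IV collagen, Nid1, nidogen, had 0.786 (0.638 to 0.958) and Hspg2, perlecan, 0.0782 (0.0484 to 0.119). Perlecan has a very long transcript, and its 21 reads gave an RPM of 2.73.

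Sparc was the highest of all 68 genes. It encodes a small collagen-binding glycoprotein of remodelling tissue and basement membranes, and it had, at chr11:55394501-55420080, 4247 reads and an RPKM of 91.2 (88.5 to 94.0), rank 335 of all genes. Without length Col3a1 was higher, at an RPM of 893 against 552. Mgp, a small inhibitor of calcification made by smooth muscle and fibroblasts, had an RPKM of 21.8 (19.1 to 24.6) from 249 reads. It ranked 1152 by RPKM but 3210 by reads. The rank by reads was the higher one for 63 of the 68 genes, including every collagen with reads, and Mgp, Dcn and Lum were the exceptions among genes above 0. Eln, elastin, had 7.29 (6.71 to 7.91), while Fbn1, the fibrillin on which elastin is laid down, had 0.272 (0.207 to 0.350). Postn and Tnc, both linked to remodelling, had 1.06 (0.798 to 1.38) and 0.681 (0.549 to 0.836).

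Fn1, fibronectin, shows how the choice of row bears on a value. The table lists 7 transcripts of Fn1, the glycoprotein that cells bind through integrins, with the same start and end, of which 1 had 140 reads and an RPKM of 1.02 (0.856 to 1.20), 1 had 53 reads, and 5 were listed at 0. No source used here says how reads common to several transcripts were assigned. Of the 11 matrix genes with more than 1 row, 6 had reads in a single row and 5 in several. Dcn and Lamb3 each list the same reads, 854 and 32, in both of their rows, so rows of 1 gene cannot simply be added.

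The proteoglycans were led by those that coat collagen fibrils. Dcn, decorin, had 854 reads and an RPKM of 23.8 (22.3 to 25.5). Bgn, biglycan, had 3.49 (3.00 to 4.02), and Lum, lumican, 1.82 (1.43 to 2.29), so the intervals of these 3 genes did not overlap. Vcan, versican, a large hyaluronan-binding proteoglycan, had 12 reads and an RPKM of 0.141 (0.0729 to 0.246).

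**Figure D2:**
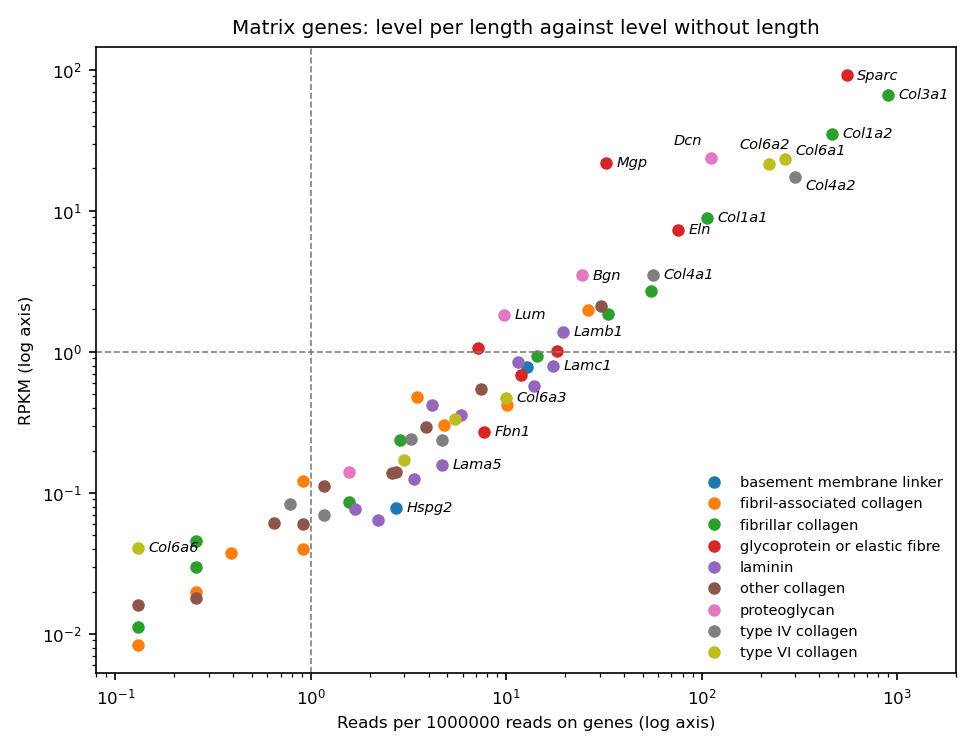
RPKM against reads per 1000000 reads on genes for 65 matrix genes above 0 (both axes log), coloured by class; dashed lines mark 1 on each scale. Short transcripts such as Mgp lie above the band and long ones such as Hspg2 and Lama5 below it, and 51 genes drawn pass 1 on the horizontal scale against 20 on the vertical one.

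CEL-Seq yields about 1 tagged region for each molecule whatever its length, so division by length lowers long transcripts, and most collagens and laminins are long. The 2 scales shared most leading genes, in another order: by RPM the first 6 were Col3a1, Sparc, Col1a2, Col4a2, Col6a1 and Col6a2, whereas by RPKM Dcn and Mgp stood among the first 6. Levels were compared between genes per length, and the RPM of each chain ratio that this choice moved is given among the limits.

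Genes that make and fasten collagen were examined next, from lists outside the 68. Their counts at an RPKM of 1 or more stand beside 31.0% of all genes and were not tested. Of 17 genes of collagen synthesis 8 were at an RPKM of 1 or above, led by Ppib, a prolyl isomerase of the endoplasmic reticulum, at 82.3, Mia3, which loads procollagen into transport vesicles, at 22.5, and Colgalt1, which adds galactose to collagen, at 10.8. None of these 3 is specific to matrix-producing cells. Serpinh1, the chaperone dedicated to procollagen, had 111 reads and an RPKM of 2.86. In processing and crosslinking 4 of 14 genes reached 1: the transglutaminase Tgm2 at 564, the lysyl oxidases Lox at 5.62 and Loxl2 at 2.47, and Pcolce at 2.46, with Tll2 listed at 0. Tgm2 was higher than each of the 68 matrix genes.

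Counts at an RPKM of 1 or more in related matrix families, from short lists and beside 31.0% of all genes, were not tested against each other. Of 8 further small leucine-rich proteoglycans 2 reached that level, Ogn at 4.92 and Prelp at 3.64, with Aspn next at 0.403. Of 15 further elastic fibre genes 7 did, led by Emilin2 at 77.9, Mfap5 at 10.9 and Ltbp4 at 4.80. Of 12 further basement membrane genes 1 did, Tinagl1 at 4.08, followed by Agrn at 0.316 and Smoc2 at 0.238, and Frem1 was listed at 0. Of 12 matricellular genes 5 did, led by Thbs1 at 131, Tgfbi at 47.2 and Sparcl1, a relative of Sparc, at 8.88, with Comp and Spp1 listed at 0.

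Among receptors for collagen and laminin, Cd44, a hyaluronan and collagen receptor abundant on leukocytes, had an RPKM of 605, the integrin chain Itgb1 12.7 and the laminin receptor Bcam 10.2. Of the 16 receptors 8 were at or above 1, beside 31.0% of all genes. The median was 0.801, and the platelet collagen receptor Gp6 was listed at 0. The collagen kinases Ddr2 and Ddr1 had 1.17 and 0.391, and the inhibitory leukocyte collagen receptor Lair1 had 1.27.

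Markers of the cell types that a colon digest could hold were set beside the matrix genes. Counts of markers at an RPKM of 1 or more stand beside 31.0% of all genes and were not tested. Eosinophil genes, a check of the label of the sort, were at an RPKM of 1 or above in 6 of 7 cases and had a median of 74.3, led by Alox15 at 230, Ccr3 at 155 and Siglecf at 77.9, and the peroxidase gene Epx was low at 0.265. Fibroblast markers outside the matrix genes reached an RPKM of 1 in 7 of 15 cases, with Thy1, which T cells share, at 10.6, Dpt at 4.80 and Cd34 at 3.01. The platelet-derived growth factor receptors Pdgfra and Pdgfrb, both on this list, had 75 and 15 reads, or 0.729 and 0.193. Fibroblast levels ranged from 0.0522 to 10.6, none was at 0, and their sum was 27.6.

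Smooth muscle markers reached 1 in 7 of 9 cases, led by Acta2 at 34.8, Tagln at 6.85 and Myh11 at 6.69, with a range from 0.408 and a sum of 61.9. Blood endothelial markers did so in 4 of 11, led by Pecam1, which leukocytes share, at 16.3, Plvap at 12.4 and Tie1 at 6.15, with a range from 0.0519 and a sum of 38.5; Cdh5 had 0.535. Lymphatic markers did so in 2 of 4, with Ccl21a at 11.6, Lyve1 at 1.43 and Prox1 at 0.0465. Glial markers did so in 2 of 6, with Sox10 at 2.14, Gfap at 1.49 and Ncam1 at 0.504. None of 6 pericyte markers reached 1, with Notch3 at 0.459, Kcnj8 at 0.452 and Rgs5 at 0.346 and Abcc9 at 0. Of 4 mesothelial markers 3, Lrrn4, Msln and Wt1, were at 0, and Upk3b had 1 read. The markers of interstitial cells of Cajal, Ano1 and Kit, had 0.938 and 0.0800.

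Over these 8 stromal and vascular lists, 22 of 57 markers (38.6%) reached an RPKM of 1, beside 31.0% of all genes, and 4 were at 0. Sparc and Col3a1 were each higher than all 57, the highest being Acta2, whose interval (33.1 to 36.5) overlaps that of Col1a2 (34.1 to 36.4). By RPKM, Col6a1, Col6a2, Dcn and Mgp were also higher than every fibroblast and endothelial marker. The interval of Col4a2 overlaps that of Pecam1 (15.4 to 17.4). Part of this order rests on the division by length. By RPM, Dcn at 111 and Mgp at 32.4 were below Pecam1 at 136, and Mgp was also below Thy1 at 55.9. Without length, Col1a2 at 464 stood above Acta2 at 222, and Col4a2 at 301 above Pecam1. The matrix genes summed to an RPKM of 349.7 and the 57 markers to 148.7. Epithelial markers were above both in their median, 10.5, with all 10 at an RPKM of 1 or more, a sum of 261, and Epcam at 89.3, Krt19 at 66.7 and Lgals4 at 30.1. Macrophage markers reached 1 in 4 of 6 cases, with a sum of 93.0, Csf1r at 41.0, C1qb at 37.9 and C1qc at 10.7. On the same list Mrc1 was low at 0.172 and Cd163 at 0.0157. The table holds 1 value per gene, so which cells made the matrix transcripts was not tested.

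**Figure D3:**
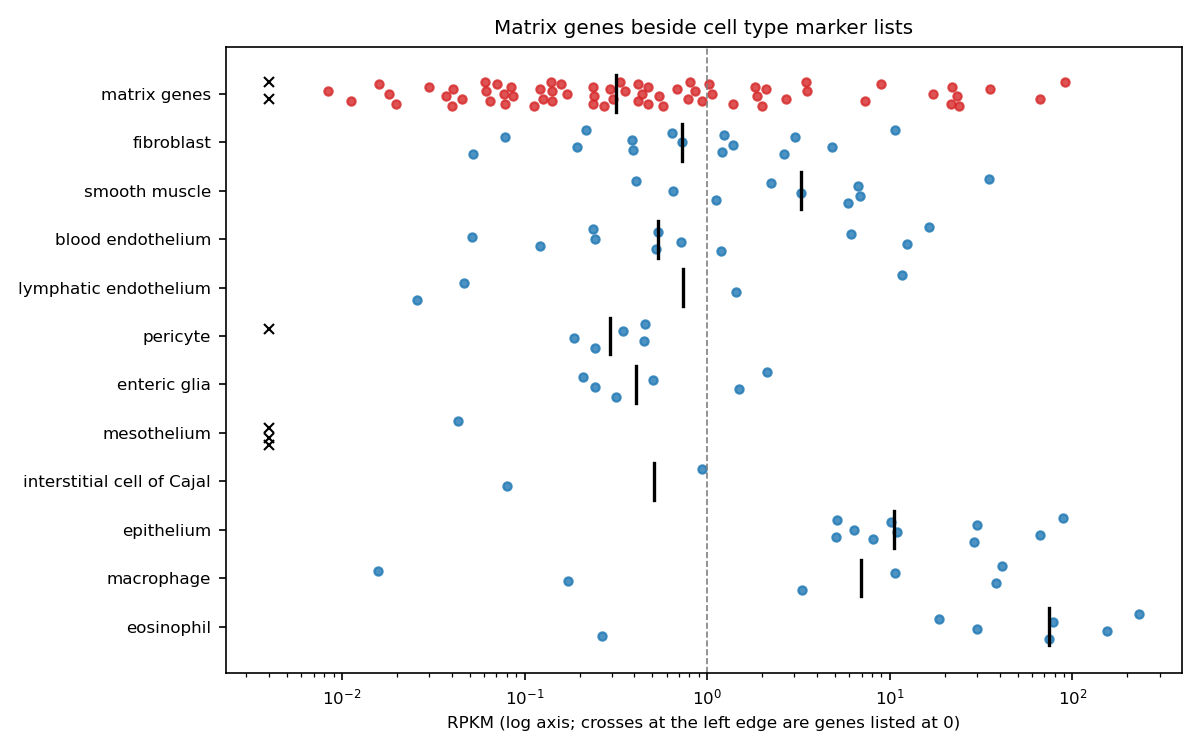
RPKM (log axis) of the 68 matrix genes and of the markers of 11 cell types, 1 point per gene; vertical bars are medians over all genes of a list, the dashed line is an RPKM of 1 and crosses are genes listed at 0. Sparc and Col3a1 lie to the right of all fibroblast, smooth muscle, vascular, glial and mesothelial markers, and the eosinophil markers have the highest median, 74.3; the mesothelial median is 0 and has no bar.

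The last question was whether the matrix reads lay in a few libraries. The 6 libraries were found to have depths of 1892486, 2070937, 2100580, 2396564, 4343107 and 4752357 reads, from transcripts with 1 read in all, and they were not assigned to the samples. For a gene with more reads, the read total divided by RPKM and transcript length gives an implied depth, a mean that is low when the reads lay in shallow libraries and high when they lay in deep ones. It assumes that the authors used the same transcript length, which was taken from GENCODE M21 for the 10 matrix genes with 20 or more reads whose row has the same start and end there. Their median was 3213113 reads, beside 3007206 for 1459 other genes. Sparc, Col1a2, Col4a2, Col6a1 and Col6a2 were not among these 10, so the question was not addressed for most of the leading genes.

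Col3a1, the gene with the most matrix reads, had an implied depth of 3088422, which places between 45.2% and 68.6% of its reads in the 2 deepest libraries. These libraries held 51.8% of the summed depth. Col4a1 had 3110928, Tnc 3169204 and Col16a1 3257022. The highest was Lamc1 at 3657886, with 69.6% to 85.5% of reads in the 2 deepest libraries, and the lowest were Col7a1 at 2599059 and Col4a6 at 2602751, from 20 and 25 reads. In all, 8 of 10 were above the median of the other genes, and all 10 lay between the 5th and 95th percentiles of those genes, 2395787 and 3891601. Under that assumption the Col3a1 reads came from both deep and shallow libraries; whether they came from both samples was not tested.

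**Figure D4:**
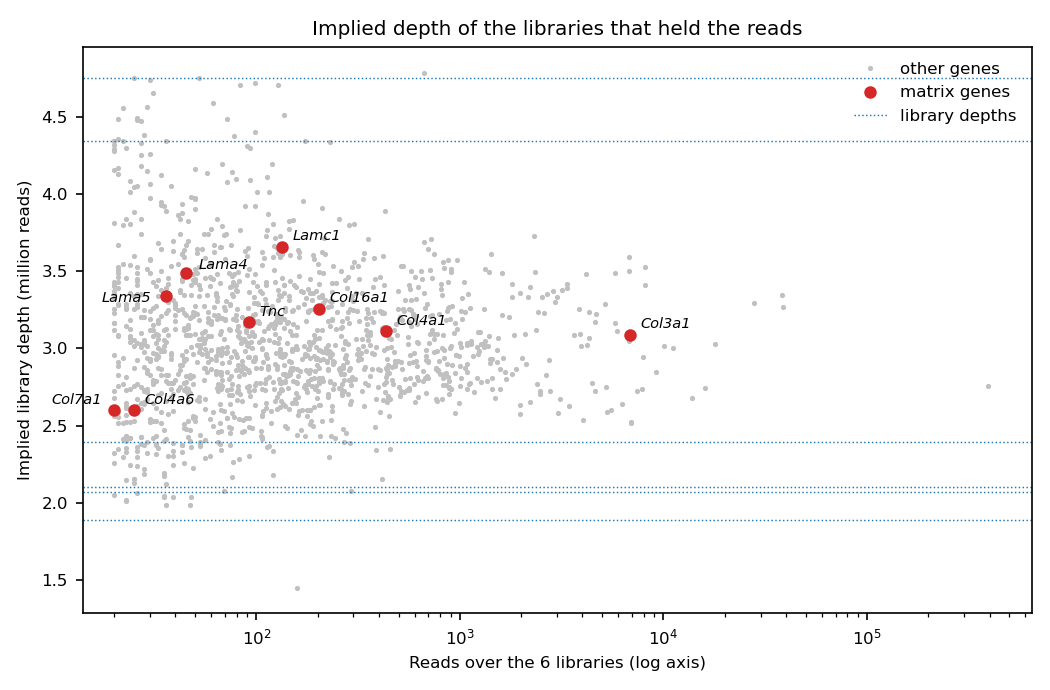
Implied library depth (in units of 1000000 reads) against reads over the 6 libraries (log axis) for 9 matrix genes (red) and 1459 other genes (grey), all with at least 20 reads; dotted lines are the 6 library depths. The matrix genes lie between 2599059 and 3657886 reads, within the cloud of other genes; a point outside the outermost dotted lines cannot be a mean of those depths.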

How the data were processed

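Total RNA of colonic eosinophils from naive mice was made into CEL-Seq libraries, 2 samples with 3 technical replicates each, per the labels' protocols. STAR 2.4.2a, DESeq and build mm10 are named in the submitters' processing notes; the counter, annotation release, strand setting and handling of multiply aligned reads are not stated there, so antisense partners cannot be told apart. The deposited read totals are an unnormalised signal that looks like a mean over libraries: 100% of them times 6 were whole within 0.0001. The RPKM values were computed by the authors, per the file headers. Both columns are 1 mean for the group, and 0 columns belonged to other samples.

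Current gene symbols came from RefSeq, by accession for 30726 rows, and 2306 rows changed name. The row with the most reads was kept for each of 23456 genes. Every matrix gene was accounted for, except that 1 is not reported here by name and enters only the counts and sums, with the 6 highest and the chains of 7 ratios in full; of each other list the 3 highest were named, and genes named beyond these were chosen after their values were seen. The matrix genes, lists and ratios were chosen with earlier results of these data known. Ratios carry exact conditional binomial intervals at 95%. Depths and intervals were run on simulated Poisson counts with known depths and transcript lengths. Such data cannot check error beyond counting or the lengths that the authors used. The software was Python 3.11.15 with scipy 1.17.1, numpy 2.4.6, matplotlib 3.10.9 and pandas 2.3.3. Alternatives were other detection minimums, RPM, other rows and the removal of genes with shared sequence.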

Additional observations from a re-analysis of the deposited data

How the results depend on the processing

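The table holds 1 mean over all libraries, so leaving out either sample was not possible. No chain ratio crossed 1 under the alternatives run, but by RPM the interval of Lamb1 to Lamc1 included 1. The number of matrix genes at the detection minimum, 20 at an RPKM of 1, was 66 for any RPKM above 0, 10 at an RPKM of 5, 52 at an RPM of 1 and 39 on RPKM rescaled to a sum of 1000000, the last chosen after seeing the data. The median, 0.318 as RPKM, was 4.74 as RPM, another unit. The share of the matrix genes was 0.350% of reads and 0.147% of summed RPKM. By RPM the ratio of Col1a1 to Col1a2 was 0.230, Col6a1 to Col6a2 1.20, Col6a3 to Col6a2 0.0453 and Lamb1 to Lamc1 1.12. These follow from the division by length. The other 28 of 38 alternatives included the row with the highest RPKM and 3 other choices for the implied depth. They stayed within the counting interval or, for the median, within 0.141 to 0.570 (its order-statistic interval over genes). Among them the implied depth stayed within 1 SD over genes and a count within 1.5 times. No gene had 50% or more shared sequence words, so leaving such genes out changed nothing. Each gene of the chain ratios had reads in a single row, so the choice of row could not move a ratio either. These outcomes were fixed in advance, and they are counted among the 28. Depth limits the genes under 10 reads, whose intervals span several-fold.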
